A study of Mus musculus with 26 samples.

Results

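The mir-17/92 and mir-106b/25 clusters are related groups of miRNA genes, and their 9 members were chosen by name: mmu-mir-17, mmu-mir-18a, mmu-mir-19a, mmu-mir-20a, mmu-mir-19b-1 and mmu-mir-92a-1 of the former, and mmu-mir-106b, mmu-mir-93 and mmu-mir-25 of the latter (the prefix is left out from here on). The small RNA table held 1360 entries, of which 1054 were miRNA precursors, and all 9 members were found. Each member was detected in each of the 26 libraries, and all 9 were among the 463 miRNA entries that passed the filter on low counts. The question was whether the members differed between the dorsal (dHC) and ventral (vHC) hippocampus, whether a swim changed them, and how the clusters compared.

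The libraries came from male C57BL/6J mice of 2 to 3 months. Swim mice spent 6 min in water of 18 °C, and their dHC and vHC, from both hemispheres, were collected at a time point labelled 45 min, whereas control mice stayed in the home cage. There were 8 libraries of control vHC and 6 each of swim vHC, control dHC and swim dHC, spread over 3 blocks, which the labels give as dates. Blocks 2 and 3 held 2 libraries of every group, and block 1 held 4 of control vHC beside 2 of the remaining groups. The labels do not tie libraries to animals, so p-values treat libraries as independent samples. The tissue is a mixture of cell types, in which fewer cells of a type and less RNA per cell cannot be told apart.

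A miRNA cluster is transcribed as a single primary RNA, from which the hairpins of its members are cut and trimmed to mature miRNAs. A mature miRNA recognises mRNAs mainly through its seed, the bases near the 5′ end, so members with the same seed share many targets. The mir-17/92 cluster is known as oncomiR-1, for its part in proliferation and lymphoma, and in the brain it is known for promoting the growth of neural progenitors. The mir-106b/25 cluster lies in Mcm7, a gene of the DNA replication helicase, and has been linked to proliferation of neural stem cells. A related cluster, which holds mir-106a and mir-363, lies on the X chromosome.

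The mir-17/92 members lay at chr14:115043671-115044506 on the plus strand of GRCm38, a stretch of 836 bases within an exon of the noncoding host transcript Mir17hg-201. The mir-106b/25 members lay at chr5:138165321-138165818 on the minus strand, a stretch of 498 bases within intron 13 of Mcm7-201, and mir-93 and mir-25 also overlapped an exon of 1 other transcript of Mcm7. The table counts a precursor without separating its arms. The sequences below, from RefSeq on GRCm38.p6, are the arms usually taken as the functional strand, with the seed (bases 2 to 8) in capitals, shown because they sort the members in a way that the clusters do not. The first 4 share the seed of miR-17 and come from both clusters, and the next pair, again 1 from each cluster, shares that of miR-92a. Among the members, the seeds of miR-19 and miR-18a belonged to mir-17/92 alone.
mmu-miR-17-5p: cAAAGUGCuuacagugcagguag
mmu-miR-20a-5p: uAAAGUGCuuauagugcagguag
mmu-miR-106b-5p: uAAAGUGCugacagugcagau
mmu-miR-93-5p: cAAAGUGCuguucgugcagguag
mmu-miR-92a-3p: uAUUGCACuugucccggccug
mmu-miR-25-3p: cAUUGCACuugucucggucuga
mmu-miR-19a-3p: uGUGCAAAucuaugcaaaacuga
mmu-miR-19b-3p: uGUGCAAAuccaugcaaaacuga
mmu-miR-18a-5p: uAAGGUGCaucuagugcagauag

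Several of these have a near copy elsewhere, which bears on how their counts can be read. From miR-19a-3p to miR-19b-3p the difference is U11C, with positions counted from 1 at the 5′ end, and from miR-17-5p to miR-106a-5p of the X-linked cluster it is U10A. The mature miR-19b-3p and miR-92a-3p are made from identical sequences on chromosomes 14 and X.
mmu-miR-106a-5p: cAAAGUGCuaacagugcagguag
In the table, mir-19b-1 and its X-linked copy mir-19b-2 had nearly equal counts, with a median ratio of 0.99 over the 26 libraries and a range of 0.915 to 1.01. The counts of mir-92a-1 were 1.58 times those of mir-92a-2 (range 1.44 to 1.78). Counts of mir-17/92 members were fractions in 10 to 25 of the 26 libraries, whereas those of mir-93 were whole in all and those of mir-106b and mir-25 in all but 4. The level of a single mir-17/92 gene is therefore uncertain where it shares a sequence. Of the X-linked entries without an identical copy among the members, mir-106a had a median of 119 counts per library, mir-363 8, mir-20b 5.75 and mir-18b 1.75.

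The miRNA counts per library ranged from 465387, in control dHC library 24, to 4819724, with medians of 2499660 in vHC and 3037100 in dHC. Levels are given as normalized CPM, which are counts per 1000000 miRNA counts scaled by the TMM method. The neuronal entries (the copies of mir-124 and mir-128, which mark neurons) summed to between 73009 and 115319 CPM.

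The mir-106b/25 cluster was the more abundant in every library. Its 3 members together took 0.222% ± 0.0442 of miRNA counts and the 6 members of mir-17/92 took 0.104% ± 0.0255 (mean ± SD, n = 26). Within mir-106b/25 the counts were shared among the members, with 46.5% ± 2.66 from mir-93, 31.8% ± 3.19 from mir-25 and 21.7% ± 2.92 from mir-106b. Within mir-17/92 a single member dominated, and mir-92a-1 gave 62.5% ± 6.68 of the counts. The others gave 14.5% ± 2.31 (mir-20a), 9.88% ± 2.05 (mir-17), 6.25% ± 1.64 (mir-19b-1), 4.84% ± 1.40 (mir-19a) and 1.97% ± 0.705 (mir-18a).

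From the highest to the lowest mean CPM the order was mir-93, mir-25, mir-92a-1, mir-106b, mir-20a, mir-17, mir-19b-1, mir-19a and mir-18a. Means over all libraries ran from 1033 ± 222 CPM for mir-93 to 20.4 ± 8.83 CPM for mir-18a. Most neighbours in this order kept their places in all 26 libraries. The exceptions were mir-25, above mir-92a-1 in 21, and mir-92a-1, above mir-106b in 24. By seed, mir-106b and mir-93 gave 85.7% ± 3.1 of the counts of the 4 members with the miR-17 seed, and mir-25 gave 52.3% ± 2.74 of those with the miR-92a seed.

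**Figure D1:**
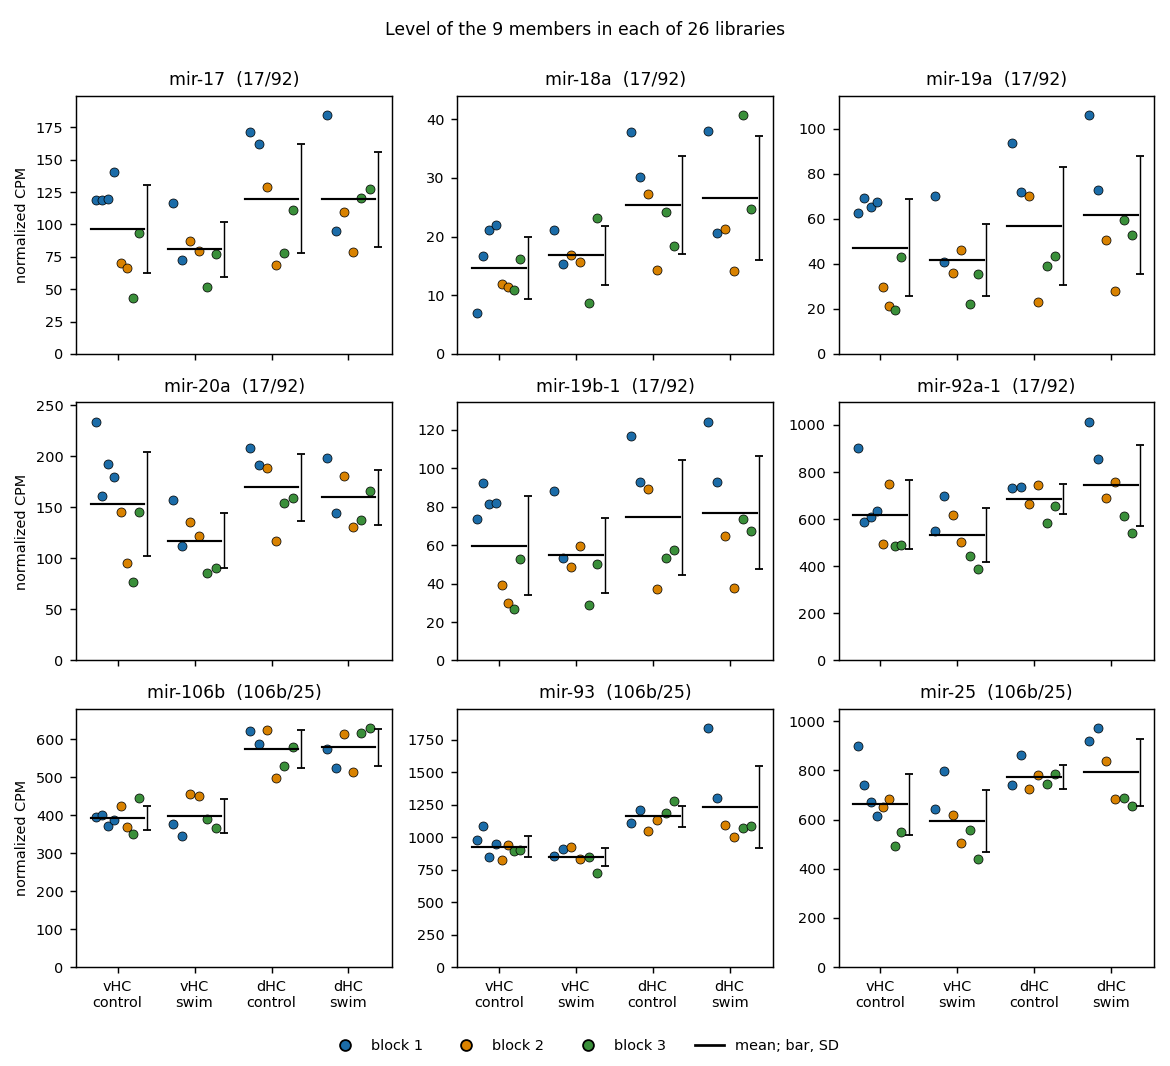
Normalized CPM (y axis, from 0) of the 9 members in each of the 26 libraries, by region and stress (x axis) with points coloured by block, lines at the group means and bars of 1 SD. For mir-106b, every dHC library lay at 499 CPM or more and every vHC library at 455 CPM or less, whereas mir-19a and mir-19b-1 separate more by block.

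The clearest difference was between the regions. All 9 members were higher in dHC than in vHC, by 0.35 to 0.76 on the log2 scale, when the region difference was averaged over control and swim mice with block in the model (edgeR quasi-likelihood test, adjusted p from 2.50e-07 to 0.0172). Of all entries tested 36.1% passed in either direction and 17.5% were higher in dHC, and the median difference of all entries was close to 0, against 0.51 for mir-17/92 and 0.44 for mir-106b/25.

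mir-106b, a member with the miR-17 seed, showed this most plainly. Its level was 346 CPM at the lowest, 389 at the median and 455 at the highest in the 14 vHC libraries, against 499, 584 and 629 CPM in the 12 dHC libraries. Every dHC library lay above every vHC library, a pattern that held for 2 of the 463 entries (0.432%). The other was mir-187, named after its values were seen. Entries with every vHC library above every dHC library were not counted. The log2 difference was 0.54 (SE 0.067), a 1.46-fold higher level with a 95% interval of 1.32 to 1.60, and its p was the 17th smallest of all entries (edgeR, adjusted p = 2.50e-07). The difference of the mean log2 CPM was 0.60 in block 1, 0.40 in block 2 and 0.60 in block 3. In each block every dHC library lay above every vHC library, as for 3.89%, 4.97% and 7.99% of all entries in blocks 1, 2 and 3.

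The neighbours of mir-106b in the Mcm7 intron followed. mir-93, which also carries the miR-17 seed, had 723, 895 and 1087 CPM (lowest, median and highest) in vHC and 1001, 1119 and 1839 CPM in dHC, so that the regions overlapped at the edges. Its log2 difference was 0.44 (SE 0.074, edgeR, adjusted p = 2.54e-05). mir-25, with the miR-92a seed, had 439, 631 and 899 CPM in vHC against 655, 765 and 972 CPM in dHC, a log2 difference of 0.36 (SE 0.075, edgeR, adjusted p = 0.000423). Within each of the blocks the 4 dHC libraries lay above every vHC library for mir-93, and in blocks 2 and 3 for mir-25. Of all entries, 3.89% were separated in this way in block 1, 4.97% in block 2 and 7.99% in block 3.

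In mir-17/92 the differences were as large but the libraries overlapped more. mir-18a, the least abundant member, had 6.92, 15.9 and 23.2 CPM in vHC and 14.1, 24.5 and 40.7 CPM in dHC. Its log2 difference of 0.76 (SE 0.17) was the largest of the 9, on the fewest counts, a median of 49.8 per library (edgeR, adjusted p = 0.000875). mir-17, the founding member, had 42.9, 83.3 and 141 CPM in vHC and 68.8, 116 and 185 CPM in dHC. The log2 differences of mir-17, mir-19a and mir-19b-1 were 0.51, 0.53 and 0.50 (SE 0.14, 0.16 and 0.15). mir-20a, which has the miR-17 seed, and mir-92a-1 differed by 0.36 (SE 0.12) and 0.35 (SE 0.083).

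In each of the 3 blocks all 9 members were higher in dHC, a pattern that held for 30.2% of all entries. Taken separately, 5 members were higher in dHC in control mice (mir-18a, mir-19b-1, mir-106b, mir-93 and mir-25), where 22.5% of all entries passed and 7.78% were higher. In swim mice 5 were higher (mir-17, mir-92a-1, mir-106b, mir-93 and mir-25), where 20.3% passed and 7.56% were higher. All of mir-106b/25 passed in both. The split of all calls in control mice, 36 higher and 68 lower with TMM, became 66 and 64 with DESeq2 size factors, under which 7 members were called.

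**Figure D2:**
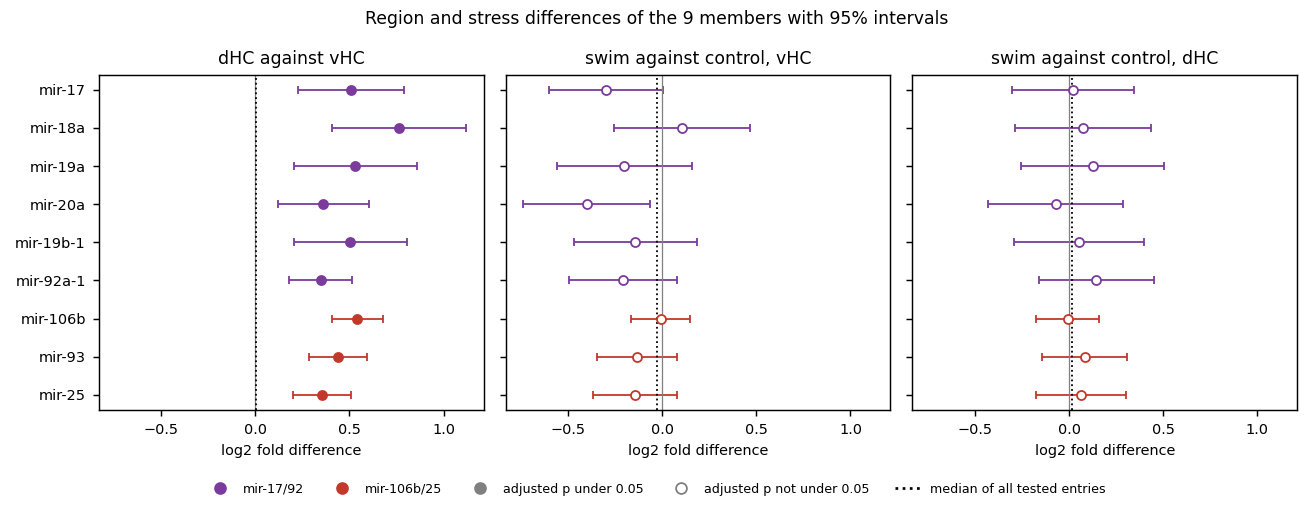
Log2 fold differences (x axis) of the 9 members with 95% confidence intervals, for dHC against vHC and for swim against control in each region, filled where the adjusted p was under 0.05, and dotted lines at the median of all entries tested. In the region panel all 9 points lie between 0.35 and 0.76, and in the stress panels 8 of 9 intervals in vHC and all 9 in dHC include 0.

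These region differences depended on how the blocks were modelled. With neither block nor surrogate variables 4 members passed (mir-18a, mir-106b, mir-93 and mir-25), all 9 remaining higher in dHC. With the 2 surrogate variables in place of block, mir-25 alone passed, and 5 members took the opposite sign, although of the variance of the second of these variables 91.1% lay between the regions. Depth and the levels of some cell type markers also differed between the regions. With the log2 miRNA count as a covariate all 9 members were called, with medians of 0.47 for mir-17/92 and 0.44 for mir-106b/25. Of the oligodendrocyte entries (mir-219a-1, mir-219a-2 and mir-338), 3 of 3 were higher in dHC, where 36.1% of all entries passed and 17.5% were higher. Their summed level was 3321 to 4939 CPM in vHC and 4329 to 7617 CPM in dHC. The part of oligodendrocytes in the result was not tested. In the erythroid list 2 of 4 tested entries, mir-486a and mir-486b, were lower in dHC, while mir-144 (0.20) and mir-451a (0.03) did not pass. In the neuronal list 2 of 5, the copies of mir-128, were lower, while the copies of mir-124 (0.18 each) did not pass. Of 6 choroid plexus and ciliated entries 3 were higher and 3 lower. In the microglial (5) and the endothelial and mural (3 tested) lists 0 passed.

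The swim did not move any member past the threshold. When stress and its interaction with region were tested together, with region and 2 surrogate variables in the model, 0 of 9 members and 0 of 463 entries passed (0% of all entries, edgeR). At an unadjusted p under 0.05 there were 16 of all entries (3.46%) and 0 of the members. DESeq2 and limma-voom likewise called 0 members in every stress comparison.

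In vHC, 8 of the 9 members had a negative estimate after the swim, and 0 passed (0% of all entries). The median estimate of all entries was -0.03, and how many of them were negative was not counted. The mean log2 CPM was lower after the swim in each of the 3 blocks for 3 of the 9 members, against 16% of all entries. The most negative estimate was that of mir-20a. Its level was 76.5, 153 and 234 CPM (lowest, median and highest) in the 8 control libraries. In the 6 swim libraries it was 86, 117 and 157 CPM, with the swim range inside that of the controls. The log2 difference was -0.40 (SE 0.16), with an unadjusted p of 0.0224 and an adjusted p of 0.617 in edgeR, and 34 of the 463 entries (7.34%) had an unadjusted p under 0.05. The difference of the mean log2 CPM of mir-20a was -0.51 in block 1, 0.12 in block 2 and -0.26 in block 3, so that its sign was not shared. mir-17, of the same cluster and with the same seed, had a log2 difference of -0.30 (SE 0.15, edgeR, adjusted p = 0.629). mir-92a-1 was estimated at -0.21 (SE 0.14), mir-25 at -0.15 (SE 0.11) and mir-93 at -0.13 (SE 0.10).

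In dHC the estimates lay between -0.07 for mir-20a and 0.14 for mir-92a-1, and 0 members passed (0% of all entries; edgeR, adjusted p of 0.982 or more). At an unadjusted p under 0.05 there were 17 of all entries (3.67%) and 0 of the members. mir-92a-1 had 585, 698 and 743 CPM in control dHC and 539, 723 and 1014 CPM in swim dHC, with the control libraries inside the range of the swim libraries.

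For mir-106b the data were precise enough to bound the change. The log2 difference was -0.01 (SE 0.077) in vHC and -0.01 (SE 0.082) in dHC. The 95% intervals of the fold were 0.89 to 1.11 in vHC and 0.885 to 1.12 in dHC. For the mir-17/92 members the intervals were wider, and that of mir-19a in vHC ran from 0.677 to 1.12. The interaction of region and stress passed for 0 members (0% of all entries), with 23 of all entries (4.97%) and 0 members at an unadjusted p under 0.05 in edgeR. It was estimated at 0.35 (SE 0.20) for mir-92a-1, the member with the smallest p (edgeR, unadjusted p = 0.0928, adjusted p = 0.954), and at 0.0006 (SE 0.11) for mir-106b. When block replaced the surrogate variables, the median estimate of mir-17/92 in vHC went from -0.21 to -0.02 and that of mir-106b/25 from -0.13 to -0.10, still with 0 members called.

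Levels also differed between blocks, more often past the threshold for mir-17/92 members than for mir-106b/25 members, a contrast that was not itself tested. Over the 3 blocks 6 of 9 members varied (edgeR, 53.1% of all entries passed), namely mir-17, mir-19a, mir-20a, mir-19b-1, mir-92a-1 and mir-25. Against block 1, 4 members were lower in block 2 (52.5% of all entries passed, 29.8% lower) and 6 in block 3 (52.1% passed, 30% lower), and 0 members were called higher. The share of members over the 3 blocks was near that of all entries. The call of mir-25 in block 2 was lost in 28 of its 38 alternatives. Between blocks 2 and 3, 0 members and 0 of all entries passed (edgeR, 0%), with 51 entries (11%) at an unadjusted p under 0.05, mir-92a-1 (unadjusted p = 0.00487) among them.

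The miR-19 pair had the most negative estimates among the members. mir-19a had 40.7, 69.6 and 106.01 CPM in the 10 libraries of block 1, 21.1, 32.6 and 70.1 CPM in block 2 and 19.5, 40.9 and 59.4 CPM in block 3. In dHC, all 4 libraries of each later block were below the 4 of block 1. How many of all entries were separated in this way was not counted. Of all entries, 39.3% had lower means in both later blocks than in block 1, in vHC and in dHC. The log2 differences from block 1 were -0.91 (SE 0.19) and -0.93 (SE 0.19) for mir-19a and -0.84 (SE 0.18) and -0.87 (SE 0.17) for mir-19b-1 (edgeR, adjusted p of 0.000423 or less). mir-17 followed at -0.60 and -0.62 (SE 0.17 in both), and mir-20a fell by 0.51 (SE 0.14) in block 3.

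Across the clusters, the members with the miR-92a seed had similar block differences. mir-92a-1 was estimated at -0.18 (SE 0.10) in block 2, which did not pass, and fell by 0.50 (SE 0.099) in block 3. mir-25 fell by 0.23 (SE 0.091) in block 2 and by 0.40 (SE 0.091) in block 3. mir-93 and mir-18a did not pass in either (-0.20 and -0.18 for mir-93, -0.48 and -0.23 for mir-18a). mir-106b stood at 0.07 (SE 0.081) and 0.04 (SE 0.081), the only positive estimates among the members, and the 95% interval of its fold in block 3 was 0.915 to 1.15.

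**Figure D3:**
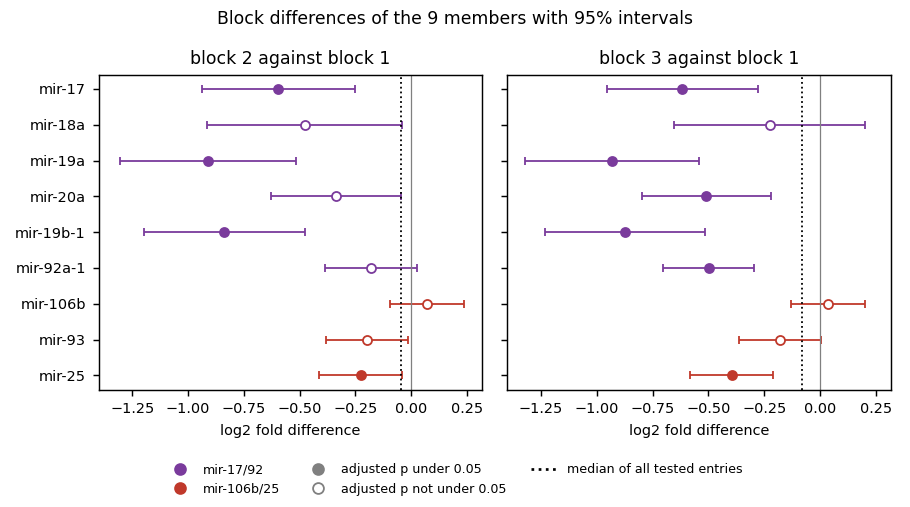
Log2 fold differences (x axis) of the 9 members between blocks, as block 2 and block 3 against block 1, with 95% confidence intervals filled points where the adjusted p was under 0.05 and a dotted line at the median of all entries tested. mir-19a and mir-19b-1 lie farthest to the left, at -0.93 to -0.84, and mir-106b lies at 0.04 to 0.07.

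The calls of all entries between blocks divided into 105 higher and 138 lower in block 2 with TMM, and 137 and 119 with DESeq2 size factors, under which 3 members were called. In block 3 they divided into 102 and 139 with TMM, and 130 and 108 with TMMwsp, under which the same number of members, 6, was called. Some marker entries also differed from block 1, as did 52.5% of all entries in block 2 (29.8% lower) and 52.1% in block 3 (30% lower). In both later blocks 2 of 5 microglial and immune entries were lower and 1 of 3 oligodendrocyte entries was higher. Also in both, 3 of 5 neuronal entries were lower, all copies of mir-124. The estimates of these copies were nearly identical (-0.33 in block 2 and -0.37 in block 3), so they are not separate measurements. The copies of mir-128 had positive estimates that did not pass (0.25 for each in block 2, 0.11 and 0.12 in block 3). The part of these cells was not tested. The erythroid list had 2 higher and 1 lower in block 2 and 1 lower in block 3, the choroid plexus and ciliated list 1 higher and 1 lower in each, and the endothelial and mural list 1 higher in block 3.

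The balance of the clusters followed the blocks more than the regions. The log2 ratio of the summed counts of mir-17/92 over those of mir-106b/25 was -0.94 ± 0.15 in block 1 (SD, n = 10), -1.13 ± 0.095 in block 2 (n = 8) and -1.31 ± 0.12 in block 3 (n = 8). No library of block 3 overlapped with block 1, whose lowest value was -1.13 against a highest value of -1.17 in block 3. By region it was -1.08 ± 0.23 in vHC and -1.15 ± 0.15 in dHC. The difference between swim and control was -0.11 in vHC and 0.02 in dHC. The SD over single libraries, which includes the block differences, was 0.25 in control vHC and 0.21 in control dHC. None of these means was adjusted for block, and block 1 held 4 of the 8 control vHC libraries. Within blocks 1, 2 and 3 the difference between swim and control in vHC was -0.13, 0.05 and -0.07. That between dHC and vHC was -0.12, -0.02 and 0.01. These ratios are given as a description.

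**Figure D4:**
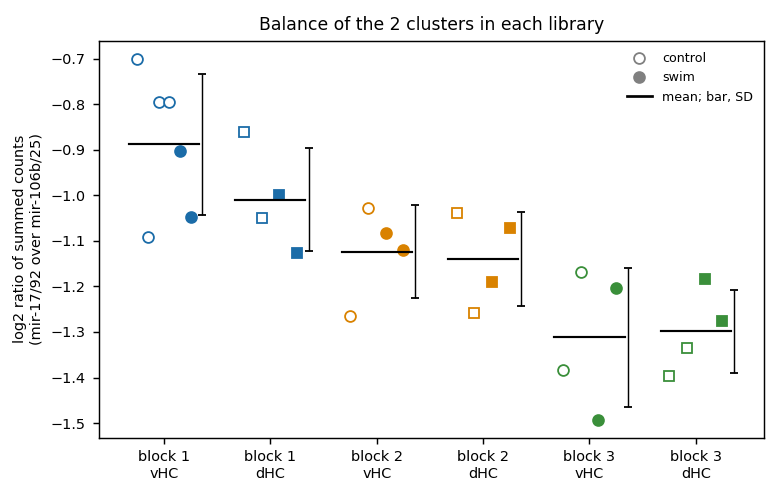
Log2 ratio of the summed counts of the mir-17/92 members over those of the mir-106b/25 members (y axis) in each library, by block and region (x axis), with open symbols for control, filled for swim, lines at the means and bars of 1 SD. The ratio runs from -0.70 in a control vHC library of block 1 to -1.49 in a swim vHC library of block 3, and the means of both regions are lower in each later block.

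Members of a cluster come from a single transcript. Their levels varied together within most of mir-17/92, but not between mir-106b and its neighbours, and some members followed those of the other cluster. After the means of region, stress and block were removed, Pearson's r between members over the 26 libraries ran from -0.45 to 0.99 within mir-17/92 (15 pairs, median 0.64, with the negative values all in pairs with mir-92a-1), from -0.10 to 0.45 within mir-106b/25 (3 pairs, median 0.08) and from -0.54 to 0.81 between the clusters (18 pairs, median 0.004). mir-106b varied with mir-19a (0.81), mir-17 (0.79) and mir-19b-1 (0.77) of the other cluster, and not with mir-93 (0.08) and mir-25 (-0.10), its neighbours in Mcm7. mir-92a-1 varied with mir-25 (0.62) and mir-93 (0.56). The value of 0.99 between mir-19a and mir-19b-1 comes from sequences that differ at a single base.

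The grouping matched base composition, a split chosen after the correlations were seen. The 6 members whose mature sequence held under 50% G and C (34.8% to 47.8%) had r between 0.26 and 0.99 with each other, and the 3 at 50% or more (mir-25, mir-93 and mir-92a-1, up to 57.1%) had r between 0.45 and 0.62. Pairs with a member on each side had r between -0.54 and 0.08. The points share their libraries and hence depth: r with the log2 miRNA count was 0.33 to 0.61 for the former 6 members and -0.14 to -0.05 for the latter 3. No p is given for these values, and what depth or base composition contributes was not tested.

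**Figure D5:**
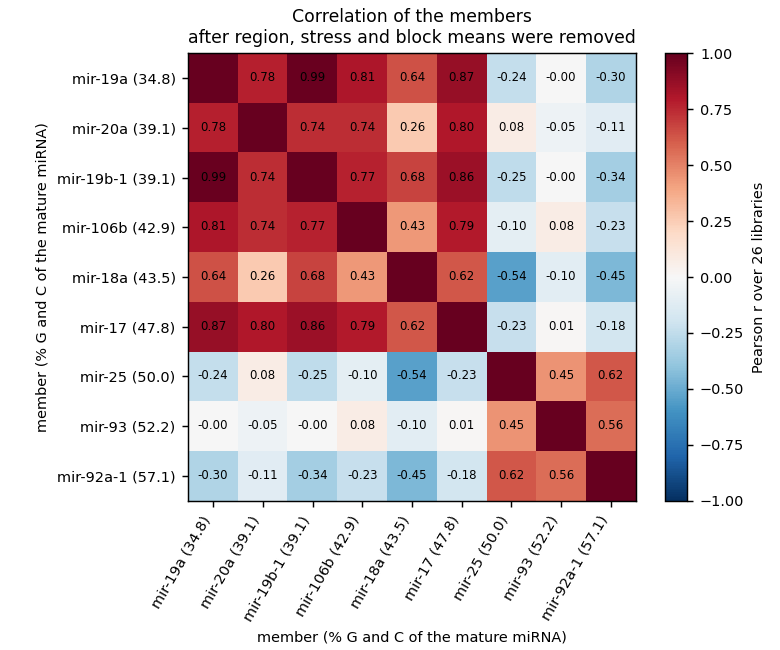
Pearson's r between each pair of members over 26 libraries after the means of region, stress and block were removed, with members ordered on both axes by the percentage of G and C in the mature miRNA. The block of high values at the top left holds mir-106b together with 5 members of mir-17/92, and mir-25, mir-93 and mir-92a-1 form a second block at the bottom right.

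Among the other entries, those whose residual levels were most like the summed mir-17/92 members were mir-935 (r = 0.82), mir-700 (0.68) and mir-667 (0.68), against a median r of 0.08 over all entries. For mir-106b/25 they were mir-344b (0.69), mir-532 (0.67) and mir-378a (0.67), against a median of 0.007. Without removal of the means the values were 0.77, -0.03 and 0.45 for the former 3 entries and -0.14, -0.07 and 0.37 for the latter 3, so that the likeness of mir-700, mir-344b and mir-532 held for the residual levels alone. These are Pearson's r over the same 26 libraries, given as a description. The mir-17/92 sum is mostly mir-92a-1, which gave 62.5% of its counts. The residual r of mir-92a-1 with the other members of that cluster was -0.45 to -0.11. Likeness to the sum therefore need not hold for those members.

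Of 8 related genes on a list chosen for their seeds (mir-106a, mir-18b, mir-20b, mir-19b-2, mir-92a-2 and mir-363 of the X-linked cluster, mir-32 in an intron of Tmem245, and mir-367), all were in the table and 6 were tested. In dHC 4 of the 6 were higher and 0 lower, with a median difference of 0.48, where 17.5% of all entries were higher. Of these 4, mir-19b-2 and mir-92a-2 have the mature sequences of members, and mir-106a differs from mir-17 at a single base. Whether reads of mir-106a and mir-17 were divided between them is not known. mir-32, whose sequence is its own, had a log2 difference of 0.66 (SE 0.15, edgeR, adjusted p = 0.00105). Its level was 27.7, 48.8 and 147 CPM in vHC and 39.8, 70.8 and 233 CPM in dHC. In control mice its difference was 0.95 (SE 0.21, edgeR, adjusted p = 0.000955). In swim mice it was 0.37 (SE 0.22, edgeR, adjusted p = 0.272), which did not pass. mir-20b (0.54, SE 0.28) and mir-363 (0.03, SE 0.19) did not pass. Stress moved 0 of the 6 past the threshold in either region.

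Between blocks, 3 of the 6 were lower in block 2, and in block 3 4 were lower and 1 higher, where 52.5% and 52.1% of all entries passed and 29.8% and 30% were lower. mir-32 fell by 1.55 (SE 0.19) in block 2 and by 1.27 (SE 0.18) in block 3, more than any of the members. It carries the miR-92a seed, as does mir-363, the entry that was higher in block 3, by 0.68 on the log2 scale (SE 0.23, edgeR, adjusted p = 0.0149), on a median of 8 counts per library.
mmu-miR-32-5p: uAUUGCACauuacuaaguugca
mmu-miR-363-3p: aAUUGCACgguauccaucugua
The mature sequences of mir-32 and mir-363 held 31.8% and 40.9% G and C. The mir-18b entry had at most 5.5 counts in a library and mir-367 had 1 count in 1 library and 0 in the other 25, and neither was tested.

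The list left out mir-92b, a further gene with the miR-92a seed, which is described here after its values were seen. It was the most abundant of those with this seed, at a median of 4372 counts per library, with 1118, 1648 and 2678 CPM in vHC and 1225, 1444 and 1891 CPM in dHC. Its region estimate was opposite in sign to those of the 9 members. The log2 difference was -0.21 (SE 0.092, edgeR, adjusted p = 0.0678) over all mice, which did not pass, and -0.36 (SE 0.13, edgeR, adjusted p = 0.0420) in control mice, which did. The shares by seed given above cover the 9 members and leave out mir-92b and the related genes. RefSeq also lists Mir6383 with the miR-17 seed, which was not analysed here.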

How the data were processed

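Small RNA was measured in 26 libraries, with groups and blocks taken from the labels. The authors made libraries with the Nextflex v3 kit in 3 batches, trimmed adapters with cutadapt, collapsed reads with the same sequence and molecular tag, and assigned them with Sports 1.0. The processing notes name the build GRCm38. The authors deposited unnormalized values that are expected counts, since 29.5% of them were not whole, and these were rounded before edgeR.

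Low entries were removed by filterByExpr over the 4 groups, at a minimum count of 10 and a minimum total of 15, and TMM factors were computed. Quasi-likelihood fits in edgeR 4.0.16 (R 4.3.3) used all 26 libraries, with region, stress and their interaction. Stress tests added 2 surrogate variables (sva 3.50.0, region in the null model), a method the study also used. Region and block tests had block in their place, because the second surrogate variable followed region. Adjustment was by Benjamini-Hochberg over the 463 entries, with a threshold of 0.05. Alternatives used DESeq2 1.42.0 and limma-voom (limma 3.58.1), other scalings, filters, covariates and libraries. The fits were tested on simulated counts.

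The members, the related genes and the marker lists were chosen with earlier results of these data known. The entries named for likeness were the 3 with the highest r with each summed cluster, leaving out related genes and further copies. Gene positions are from GENCODE vM21 and sequences from RefSeq, by name, for all 9 members and the 8 related genes. Libraries held 465387 to 4819724 miRNA counts, so that low members such as mir-18a are the least precise, and no columns were identical.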

Additional observations from a re-analysis of the deposited data

Results flagged for a closer look

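In swim dHC, library 6 stood apart from the other 5 for mir-93. It had 1839 CPM against 1302 CPM in the next highest, and this gap took 0.640 of the range of the 6 libraries. The same library had the highest level of mir-17, mir-19a, mir-19b-1 and mir-92a-1 of all 26. Without it, the region difference of mir-93 was 0.37 and still called. Of 48 groups of values examined in this way (the members, both sums and the ratio, in each of the 4 groups), 1 stood apart, and chance alone would give about 1 in 20.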

How the results depend on the processing

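The stress comparisons had 0 members called under every alternative run. For region, the 9 members called became 4 with neither block nor surrogate variables, 1 with surrogate variables in place of block and 2 in block 1 alone, with blocks 2 and 3 alone giving 9. In control mice the 5 became 3 with whole-table library sizes, 2 with neither, 3 with surrogate variables computed without region in their null model, 1 with surrogate variables in place of block and 1 in block 1 alone. In swim mice the 5 became 8 with the DESeq2 test, 2 with neither, 1 with surrogate variables in place of block, 9 without both shallowest libraries and 0 in block 1 alone, a setting with fewer libraries. Leaving out each library in turn gave 9 throughout for the region mean, 3 to 7 in control mice (3 without control vHC library 13 or 25) and 4 to 8 in swim mice (8 without control dHC library 24). Lower calls in block 2 went from 4 to 7 at an adjusted p under 0.1. The ratio of the clusters in block 2 against block 1 went from -0.19 to -0.41 without mir-19b-1 and mir-92a-1, and to -0.48 with mean log2 CPM. With surrogate variables in place of block, the region differences were -0.62 (mir-17), -0.91 (mir-18a), -0.45 (mir-19a), -0.27 (mir-19b-1) and -0.061 (mir-106b), in control mice -0.89 (mir-18a), -0.37 (mir-19b-1) and -0.061 (mir-106b) among the members called before, and -0.78 (mir-17), -0.62 (mir-19a) and -0.083 (mir-20a) among the others, and in swim mice -0.46 (mir-17) and -0.060 (mir-106b) among those called before, and -0.93 (mir-18a), -0.29 (mir-19a) and -0.17 (mir-19b-1) among the others. Of all entries, that setting called 85 and the setting with neither called 100 between regions, against 167, and block 1 alone called 56. In control mice neither called 67 and block 1 alone 24 against 104, and in swim mice these settings called 56 and 1, and surrogate variables in place of block 59, against 94. The cause of these changes was not tested. The settings added after seeing the data were block 1 alone, blocks 2 and 3 alone, the libraries without both shallowest and the newer quasi-likelihood method of edgeR. Molecular tags were collapsed, but mir-18a still rested on a median of 49.8 counts. The labels give no replicate number that groups share and do not name pairs. In 12 cases a vHC library was followed by a dHC library of the same condition and block with the next number. Pearson's r of their deviations over the 463 entries ran from -0.48 to 0.36 (median 0.035) and was over 0.1 in 4 of 12. In 8 of 12 it was above r with the other dHC library of the same group and block. These values do not settle whether the 12 cases are pairs, and they were not taken as pairs. A fit with these 12 as a replicate block, added after seeing the data, called 9 members for the region mean, 7 in control mice, 7 in swim mice and 0 for the interaction, against 9, 5, 7 and 0 for the same 24 libraries without the block, also added then.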
